A study of Mus musculus with 12 samples.

Results

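The 8 genes that mark the most primitive spermatogonia of the mouse testis, *Id4*, *Eomes*, *Shisa6*, *Nanos2*, *Pdx1*, *Tspan8*, *Egr4* and *Plvap*, were followed in sorted GFRa1+/KIT- cells from control and cryptorchid testes. They were picked by symbol, as known markers, and not by their values in these libraries, although earlier results of these data were known. They are 8 of the 21859 genes in the expression table, and 8 of 8 were among the 16932 genes whose log2 mean RPM (reads scaled to the size of the library) was above -1 and which were tested. Each of them had reads in each of the 12 libraries, with a lowest count of 8 reads, for *Id4* in control replicate 3.

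Spermatogonial stem cells renew themselves on the basement membrane of the seminiferous tubule and answer to GDNF, a growth factor from the surrounding somatic cells, through the receptor pair GFRA1 and RET. Within the GFRA1+ pool, cells in the most stem-like state are known for transcription regulators such as ID4, EOMES, PDX1 and EGR4, for the RNA-binding protein NANOS2 and for surface proteins such as TSPAN8, SHISA6 and PLVAP. As the cells become progenitors, these genes fade and others such as *Neurog3* and *Rarg* rise, before KIT appears on differentiating cells.

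The study asked how an undescended testis affects these cells. In adult GFRa1-EGFP mice, 8 to 10 weeks old, in which EGFP follows the *Gfra1* gene, surgery fixed the left testis to the abdominal wall and the right testis served as control. EGFP+/KIT- cells were sorted 10 days later, and RNA of about 200 cells per library was amplified by Smart-seq2, a full-length cDNA method without molecular identifiers. The labels give the genotype as WT for the 5 control and Cryptorchid for the 7 cryptorchid libraries, although both come from the same transgenic line, and they do not say which libraries share a mouse. Tubules were digested for 9 min at 32°C (control) or 37°C (cryptorchid), so the digestion temperature and the surgery cannot be told apart. Where libraries are not from separate mice, *P*-values measure only the spread between libraries, which may be technical.

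Reads on genes ran from 4511730 to 24345368 in control and from 3306771 to 20027902 in cryptorchid libraries. Replicates 1 to 3 of both groups had at least 6800360 reads and replicates 4 and above at most 5481947, so differences were also taken within each of these library sets. The pair of replicate 3 libraries stood apart by gene length. Genes of at least 4934.5 exonic bases exceeded those of at most 1996 (the quartiles of exonic length) by 0.915 (control) and 0.988 (cryptorchid) on the log2 scale there, each relative to the gene means, against -0.568 to 0.308 in the other libraries. The cells carried the markers of the sort, where the mean log2 RPM of *Gfra1* was 7.88 ± 0.88 (control, SD, n = 5) and 8.40 ± 0.70 (cryptorchid, SD, n = 7), against 4.49 ± 0.63 and 4.94 ± 0.57 for *Kit*. Spermatid markers were present as well, with a summed level of 695 to 3925 RPM in control and 28.7 to 2429 RPM in cryptorchid libraries.

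As a group, the stem-state genes were still read in cryptorchid cells, and their means did not all lie on one side of control. The means of 4 (*Tspan8*, *Eomes*, *Id4* and *Shisa6*) were higher and those of 4 (*Egr4*, *Plvap*, *Nanos2* and *Pdx1*) were lower in the cryptorchid group, and the median of their log2 differences was 0.26 beside 0.099 over all genes tested. A single gene, *Tspan8*, was called at 2-fold and an unadjusted *P*-value under 0.05 (limma), and it was higher. Over all genes 3.56% were called higher, 2.36% lower and 5.92% in either direction (60.2% of the calls were higher, and 45.7% after quantile normalization), beside which a single call is not a result about the 8 genes as a group. After Benjamini-Hochberg adjustment over all genes none of the 8 was called, where 0.0118% of all genes were. Unadjusted, 1 of them was under 0.05 in limma, beside 9.48% of all genes. None of the 8 had groups that did not overlap, which 0.839% of all genes had. The exact rank sum test (two-sided) put 1 of the 8 under 0.05, and 9.63% of all genes. As these are bulk libraries, fewer cells of a type and less RNA per cell cannot be told apart.

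**Figure D1:**
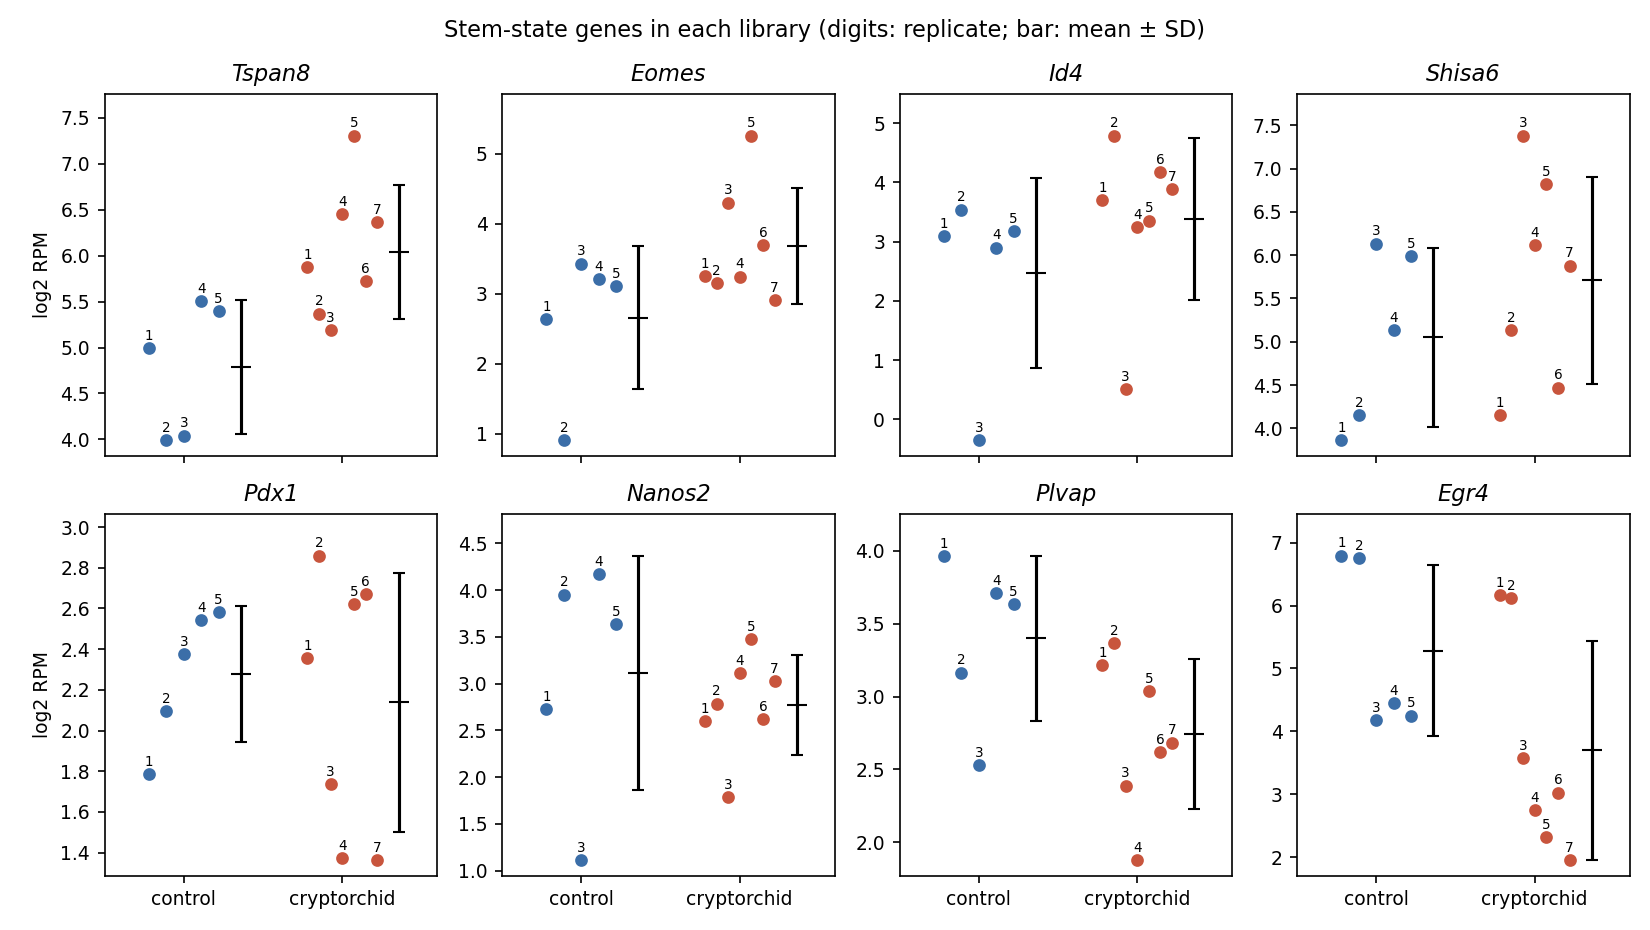
Log2 RPM (y axis, library-scaled reads on the log2 scale, each panel with its own range) of the 8 stem-state genes in 5 control (blue) and 7 cryptorchid (red) libraries, where digits give the replicate and black bars the mean ± SD. *Tspan8* has 5 of 7 cryptorchid libraries above the highest control, *Egr4* has 5 of 7 below the lowest control, and *Id4* is lowest in replicate 3 of both groups.

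*Tspan8*, which encodes a tetraspanin of the cell surface that has been used to enrich stem cells by sorting, showed the clearest difference. The gene lies at chr10:115816832-115849893 (GRCm38, + strand). Its log2 RPM was 4.99, 3.99, 4.04, 5.51 and 5.40 in control replicates 1 to 5, and 5.87, 5.37, 5.19, 6.45, 7.31, 5.73 and 6.36 in cryptorchid replicates 1 to 7. All 7 cryptorchid values were thus above the lowest 3 control values, and the groups met only where control replicates 4 and 5 reached the lower cryptorchid range. The cryptorchid group was higher in 31 of the 35 pairs of a control and a cryptorchid library. The log2 difference was 1.25 (SE 0.39, 95% interval 0.44 to 2.07), a 2.39-fold higher level (1.36 to 4.19) (limma, adjusted *P* = 0.301). The exact rank sum test, two-sided, gave *P* = 0.0303. Within replicates 1 to 3 the log2 difference was 1.13 (95% interval 0.02 to 2.24) and within replicates 4 and above 1.01 (0.18 to 1.84). When the rank sum was permuted within the library sets, the exact *P*-value was 0.00667, the smallest that those 300 splits can give. *Tspan8* also differed between the sets, with levels 1.04 higher on the log2 scale in replicates 4 and above (limma, adjusted *P* = 0.0463), and the cryptorchid group holds more of these libraries. Leaving out any 1 library left the log2 difference between 1.04 and 1.43 and the call in place. With the trend on gene length removed from each library, an alternative chosen after the data were seen, the difference was 1.32 (limma, adjusted *P* = 0.125) and the groups no longer overlapped (3.86 to 5.13 against 5.35 to 7.23), which held for 1.14% of the genes with a length.

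The 250 bases before the RefSeq start of *Tspan8* and *Egr4* are shown because these genes had the largest differences in either direction. Capitals mark matches, on either strand, to TATAA, the core of the TATA box, and to ACGTCA, part of the cAMP response element. The CCAAT box (searched as CCAAT) was looked for in the same way. So was the GC box, as GGGCGG. No match overlaps another in either sequence. The *Tspan8* window is chr10:115817034-115817283 (GRCm38.p6, + strand) and lies within the annotated gene, downstream of its outermost start. The *Egr4* window is chr6:85513590-85513839 (GRCm38.p6, - strand), directly before the annotated start.
Tspan8: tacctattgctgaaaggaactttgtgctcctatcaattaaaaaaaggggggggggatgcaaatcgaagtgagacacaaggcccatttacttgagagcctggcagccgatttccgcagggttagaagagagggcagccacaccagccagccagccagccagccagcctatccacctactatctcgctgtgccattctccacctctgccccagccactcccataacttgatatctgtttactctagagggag
Egr4: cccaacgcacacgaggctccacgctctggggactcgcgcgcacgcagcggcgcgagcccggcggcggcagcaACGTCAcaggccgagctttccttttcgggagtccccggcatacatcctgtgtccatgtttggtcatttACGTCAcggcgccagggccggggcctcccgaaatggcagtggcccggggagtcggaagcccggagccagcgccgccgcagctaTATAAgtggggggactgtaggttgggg
*Egr4* holds 1 TATAA and 2 ACGTCA matches and a GC content of 68.0%. *Tspan8* holds no match to any of the 4 motifs and has a GC content of 52.4%, which is also the median of the 32851 mouse promoters searched. Of those promoters, 22.8% hold TATAA, 6.47% ACGTCA, 33.8% CCAAT and 32.7% GGGCGG in the same window. These matches describe letters and are not binding sites.

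*Egr4*, a zinc finger transcription factor of the early growth response family that is switched on quickly by growth factor signals, had the largest difference toward lower levels. It lies at chr6:85511121-85513589 (- strand). Log2 RPM was 6.79, 6.75, 4.18, 4.45 and 4.25 in control replicates 1 to 5, and 6.16, 6.12, 3.57, 2.74, 2.32, 3.02 and 1.95 in cryptorchid replicates 1 to 7. Replicates 1 and 2 of both groups formed a high cluster at 6.12 to 6.79, and within it the control values were the higher ones. In the remaining libraries the 3 control values (4.18 to 4.45) were all above the 5 cryptorchid values (1.95 to 3.57). That split was chosen after the values were seen and was not tested. The log2 difference over all libraries was -1.59 (SE 0.76, 95% interval -3.18 to 0.00) (limma, adjusted *P* = 0.528), so *Egr4* just missed the call. Its exact two-sided rank sum was at *P* = 0.0732, and permuted within the library sets at *P* = 0.0533 (exact). In replicates 4 and above alone the difference was -1.84 (95% interval -3.15 to -0.53), and in replicates 1 to 3 it was -0.62 (-2.37 to 1.12). The difference between these values was -1.22 (SE 1.07, limma, adjusted *P* = 0.9996), so the sets were not shown to differ in response. With a term for the library set the group difference was -1.20 (95% interval -2.32 to -0.08, limma, adjusted *P* = 0.409), which passes the call. Leaving out control replicate 3, 4 or 5 also made *Egr4* pass (-1.86, -1.80 and -1.85), as did leaving out cryptorchid replicate 1 or 2 (-1.999 and -1.99), with adjusted limma *P*-values from 0.309 to 0.623.

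Several of the 8 genes followed read depth. Across the 12 libraries, which share their sets so that these are descriptions, *Egr4* had a Pearson *r* of 0.90 and a Spearman rho of 0.85 with the log2 number of reads. *Tspan8* (*r* = -0.61, rho -0.76), *Shisa6* (-0.70, -0.59) and *Eomes* (-0.66, -0.53) ran the other way. The *Egr4* level in replicates 4 and above minus that in replicates 1 to 3 was -2.28 on the log2 scale (limma, adjusted *P* = 0.0219). The part of depth or of the library set in the group differences was not tested beyond the values within sets given above. None of the family relatives of *Egr4* was called. *Egr1* had a log2 difference of -0.37 (95% interval -1.77 to 1.04), *Egr2* of 0.52 (-0.26 to 1.29) and *Egr3* of 1.12 (-0.84 to 3.09). Of 14 other immediate early genes, such as *Fos* and *Jun*, none was called in either direction, and their median log2 difference was 0.17. With the term for the library set, 3 of them were called higher (median 0.55), beside 580 of all 16932 genes. In replicates 4 and above alone 2 of them were (median 0.51), beside 635 of all genes. Without control replicate 1 or cryptorchid replicate 6 the count was 2 (beside 556 and 579 of all genes), and without control replicate 2 it was 1 (beside 508). With array weights 2 were called higher and 1 lower, beside 882 and 703 of all genes.

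**Figure D2:**
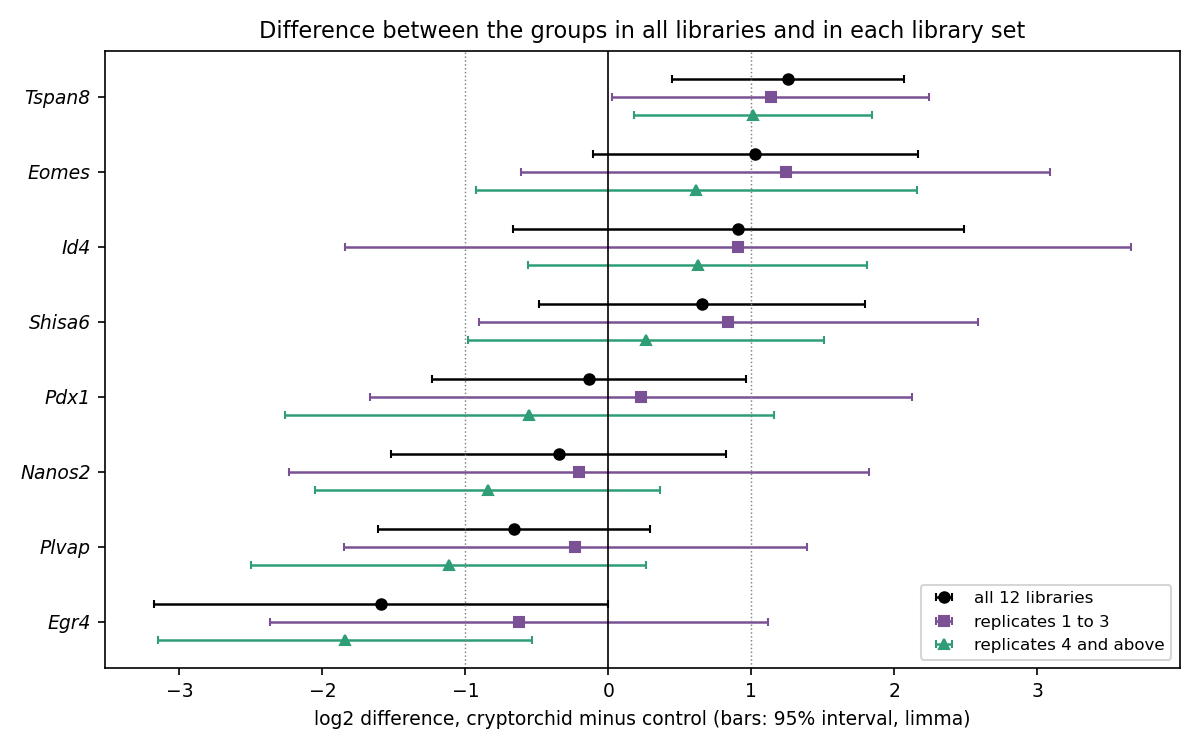
Log2 difference, cryptorchid minus control (x axis), of the 8 genes in all 12 libraries (black circles), in replicates 1 to 3 (purple squares) and in replicates 4 and above (green triangles), where bars are 95% intervals from limma and dotted lines mark 2-fold. Only the 3 intervals of *Tspan8* and that of *Egr4* in replicates 4 and above leave 0 outside.

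*Id4* encodes an inhibitor of basic helix-loop-helix transcription factors, and its reporter is a standard mark of the stem cell pool. It lies at chr13:48261228-48266026 (+ strand). Log2 RPM was 3.09, 3.54, -0.35, 2.90 and 3.18 in control replicates 1 to 5, and 3.70, 4.79, 0.51, 3.25, 3.36, 4.17 and 3.89 in cryptorchid replicates 1 to 7. Without the low replicate 3 of each group, the controls spanned 2.90 to 3.54 and the cryptorchid libraries 3.25 to 4.79. Over all libraries the log2 difference was 0.91 (SE 0.75, 95% interval -0.67 to 2.49, limma, adjusted *P* = 0.738), and cryptorchid libraries were higher in 29 of 35 pairs (exact two-sided rank sum *P* = 0.0732). The replicate 3 libraries decide this value. Without cryptorchid replicate 3 the difference was 1.39 and *Id4* was called (95% interval 0.04 to 2.73, limma, adjusted *P* = 0.426), without control replicate 3 it was 0.20 (-1.16 to 1.57), and without both it was 0.68 (-0.19 to 1.55).

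Its relatives *Id1*, *Id2* and *Id3*, which share the dominant negative mode of action, had log2 differences of 0.03 (95% interval -2.43 to 2.48), 0.48 (-1.82 to 2.78) and -0.55 (-2.08 to 0.98). None of these was called, and their intervals were wide. Partners of ID4, the E proteins *Tcf3*, *Tcf4* and *Tcf12*, and of NANOS2, the CCR4-NOT deadenylase subunits and *Ddx6*, were counted together with *Rb1*. Of these 10 genes none was called, and the median log2 difference was 0.09.

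*Eomes*, a T-box transcription factor known from early development and from a rare stem-like subset of GFRA1+ cells, lies at chr9:118478212-118486132 (+ strand). Log2 RPM was 2.64, 0.91, 3.43, 3.21 and 3.11 in control replicates 1 to 5, and 3.25, 3.15, 4.30, 3.25, 5.26, 3.70 and 2.91 in cryptorchid replicates 1 to 7. The low control replicate 2 and the high cryptorchid replicates 3 and 5 set the groups apart, while the other libraries lay within 2.64 to 3.70. The log2 difference was 1.03 (SE 0.54, 95% interval -0.11 to 2.16, limma, adjusted *P* = 0.572; exact two-sided rank sum *P* = 0.106). Without control replicate 3 it was 1.22 and passed the call (95% interval 0.00 to 2.44, limma, adjusted *P* = 0.385), as it did when voom weighted the recovered reads (1.25, 0.18 to 2.32, adjusted *P* = 0.363). Without control replicate 2 it was 0.59 (-0.46 to 1.64), and in replicates 4 and above alone 0.62 (-0.93 to 2.16). *Pdx1*, a homeobox factor best known from the pancreas, lies at chr5:147269959-147275848 (+ strand) and differed least. Its log2 RPM was 1.79 to 2.58 (median 2.38) in control and 1.36 to 2.86 (median 2.35) in cryptorchid libraries. The control range lay inside the cryptorchid one. The log2 difference was -0.14 (SE 0.52, 95% interval -1.23 to 0.96, limma, adjusted *P* = 0.954; exact two-sided rank sum *P* = 1), and it was positive in replicates 1 to 3 (0.23) and with voom (0.07).

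*Nanos2* encodes an RNA-binding protein that keeps male germ cells from differentiating by bringing target mRNAs to deadenylation. It lies at chr7:18987400-18988962 (+ strand), and 766 of its 1563 exonic bases overlap the antisense gene *Gm45058*. As no source gives the strand of counting, reads of the pair cannot be told apart. Log2 RPM was 2.72, 3.95, 1.11, 4.17 and 3.63 in control replicates 1 to 5, and 2.60, 2.79, 1.79, 3.11, 3.48, 2.62 and 3.02 in cryptorchid replicates 1 to 7. As with *Id4*, replicate 3 was the lowest library in both groups. The log2 difference was -0.35 (SE 0.56, 95% interval -1.52 to 0.83, limma, adjusted *P* = 0.881; exact two-sided rank sum *P* = 0.343). Without control replicate 3 it was -0.85 (95% interval -1.87 to 0.18), and without control replicate 4 it was -0.08 (-1.35 to 1.19). Its relative *Nanos1* had a log2 difference of 0.03 (95% interval -0.81 to 0.87).

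*Shisa6*, a membrane protein described in these cells as an inhibitor of WNT signalling, lies at chr11:66211725-66525964 (- strand) and has the longest exonic sequence of the 8 genes, 7421 bases. Log2 RPM was 3.86, 4.15, 6.13, 5.13 and 5.99 in control replicates 1 to 5, and 4.15, 5.13, 7.38, 6.11, 6.82, 4.47 and 5.88 in cryptorchid replicates 1 to 7. Replicate 3 was the highest library in each group, the opposite of *Id4* and *Nanos2*. The log2 difference was 0.65 (SE 0.54, 95% interval -0.49 to 1.80, limma, adjusted *P* = 0.739; exact two-sided rank sum *P* = 0.432). It was 0.36 without control replicate 1, 0.43 without control replicate 2, 0.37 without cryptorchid replicate 3 and at most 0.92 without any other library. With the length trend removed it was 0.44 (95% interval -0.58 to 1.47). The relatives *Shisa2*, *Shisa3* and *Shisa9* had log2 differences of 0.41, -0.45 and 1.35, none of them called.

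*Plvap* encodes a protein of endothelial diaphragms that has also been described in a stem-like subset of spermatogonia. It lies at chr8:71497765-71511752 (- strand). Log2 RPM was 3.96, 3.16, 2.53, 3.71 and 3.63 in control replicates 1 to 5, and 3.21, 3.36, 2.39, 1.88, 3.04, 2.62 and 2.68 in cryptorchid replicates 1 to 7. The values of 3 controls were above all cryptorchid libraries, and control replicate 3 was among the low ones. The log2 difference was -0.66 (SE 0.45, 95% interval -1.61 to 0.29, limma, adjusted *P* = 0.677; exact two-sided rank sum *P* = 0.106). Within the sets it was -0.23 (replicates 1 to 3) and -1.12 (replicates 4 and above, 95% interval -2.50 to 0.26). With the length trend removed the difference was -0.61 (95% interval -1.48 to 0.26, limma, adjusted *P* = 0.611), and the exact two-sided rank sum gave *P* = 0.0177. As *Plvap* is also an endothelial gene, the endothelial markers were set beside it. Of 11 tested, 4 were called higher (*Cdh5*, *Vwf*, *Tie1* and *Robo4*) and none lower, with *Cdh5* at a log2 difference of 2.01 and *Vwf* at 1.80. *Tie1* had reads in 7 and *Robo4* in 5 of the 12 libraries, so both rest partly on libraries without reads. With log2(RPM + 0.1) or a common floor 3 were called higher, and with log2(RPM + 1) 2 were. In replicates 4 and above alone 0 of the 11 were called, in replicates 1 to 3 alone 1, and without control replicate 3 or cryptorchid replicate 1 it was 2. The summed level of the 12 markers in the expression table was 98.1 to 354 RPM in control and 121 to 353 RPM in cryptorchid libraries. The highest marker, which was not called, had a mean log2 RPM of 7.015 (control) and 7.019 (cryptorchid) and gives much of that sum. The endothelial share of the *Plvap* reads was not tested.

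**Figure D3:**
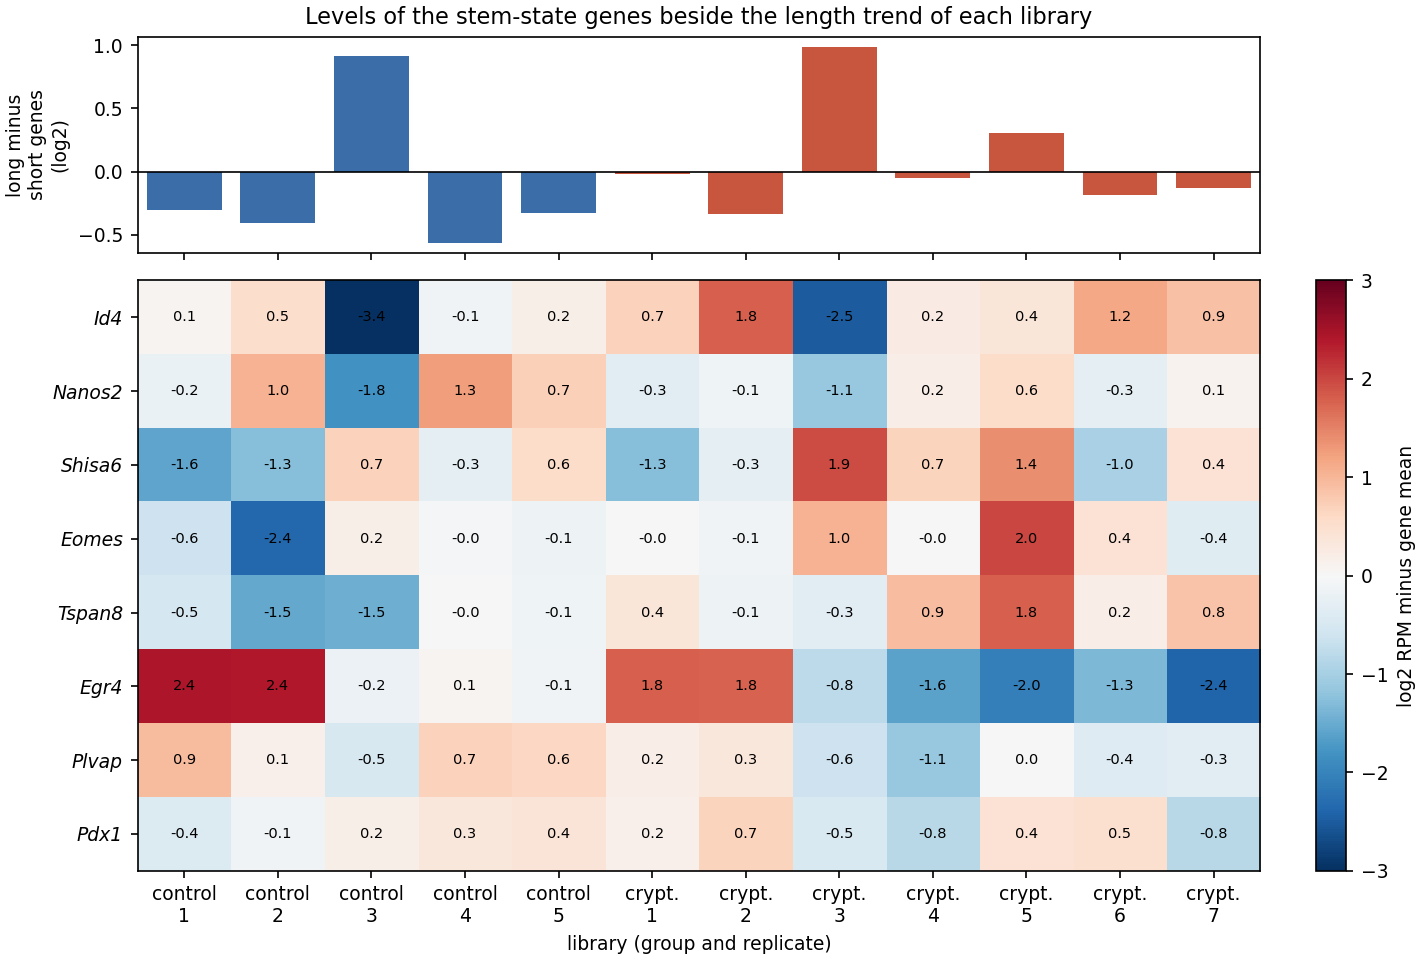
Top, excess of long over short genes in each library (log2, relative to the gene means), with control in blue and cryptorchid in red. Bottom, log2 RPM of each gene minus its mean over 12 libraries (colour and digits). The replicate 3 libraries, at 0.915 and 0.988 in the top panel, are low for *Id4* and *Nanos2* and high for *Shisa6* in both groups, and *Egr4* is high in replicates 1 and 2.

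The 8 genes did not behave as 1 block across libraries. Pearson *r* over the 12 libraries, which share groups, library sets and the length trend and so are given as a description, was highest for *Eomes* and *Shisa6* (0.66, Spearman rho 0.59). *Egr4* and *Plvap* had an *r* of 0.63 (rho 0.68). *Egr4* ran against *Shisa6* (*r* = -0.71, rho -0.70) and against *Tspan8* (*r* = -0.64, rho -0.67). *Id4* and *Nanos2* had an *r* of 0.64 but a rho of 0.11, and both share the low replicate 3 libraries.

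Among the 13015 other genes with a log2 mean RPM above 2, those most like each stem-state gene over the 12 libraries were found by Pearson *r*, with no test. *Tspan8* was closest to *Cwf19l2*, *Zfp638* and *Rb1cc1* (*r* from 0.93 to 0.96), and *Egr4* to *Sqstm1* and *Yipf3* (0.96 and 0.95). *Id4* was closest to *Nol7*, *Hspe1* and *Bex2* (0.97 to 0.98), *Nanos2* to *Cope*, *Psmg4* and *Ndufs7* (0.94), and *Shisa6* to *Mcph1*, *Zfp407* and *AU041133* (0.95). *Eomes* was closest to *Polr3gl*, *Kbtbd8* and *Fam49a* (0.89 to 0.90), *Plvap* to *Cenpt*, *Ncdn* and *Chst12* (0.91 to 0.94), and *Pdx1* to *Wdr27*, *Add2* and *Fetub* (0.76 to 0.82). No stem-state gene was among the 3 closest genes of another.

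Levels per exonic length (log2 RPKM) let the genes be set in order. In control libraries *Egr4* (4.18 ± 1.36, SD, n = 5) and *Tspan8* (4.02 ± 0.73) led, and their order held in 2 of 5 libraries, within the spread. *Nanos2* (2.47 ± 1.25), *Plvap* (2.41 ± 0.57) and *Shisa6* (2.16 ± 1.03) followed with gaps of 0.06 and 0.25, smaller than the SD of those gaps (0.999 and 1.40). *Pdx1* was at 1.17 ± 0.33, below *Shisa6* in 5 of 5 libraries, and *Eomes* (0.61 ± 1.02) and *Id4* (0.53 ± 1.6) came last, with no order between them beyond their spread. In the cryptorchid group *Tspan8* led alone at 5.27 ± 0.73 (SD, n = 7), above *Shisa6* (2.82 ± 1.19) in 6 of 7 libraries by 2.46 ± 1.24. The levels of *Egr4* (2.59 ± 1.75), *Nanos2* (2.13 ± 0.53), *Plvap* (1.75 ± 0.51), *Eomes* (1.63 ± 0.83), *Id4* (1.44 ± 1.37) and *Pdx1* (1.03 ± 0.64) were each closer to the next than the SD of the gap.

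**Figure D4:**
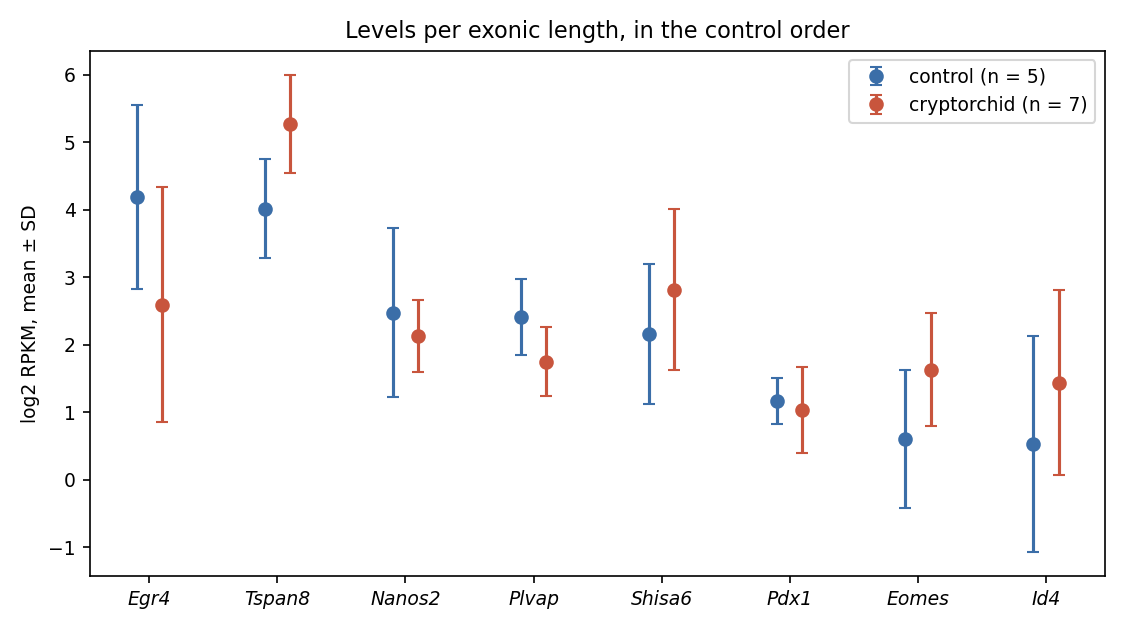
Log2 RPKM (y axis, level per exonic length; points are means and bars the SD) of the 8 genes in 5 control (blue) and 7 cryptorchid (red) libraries, in the order of the control means. *Egr4* and *Tspan8* lead in control at 4.18 and 4.02, and *Tspan8* leads in the cryptorchid group at 5.27.

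Other genes of the undifferentiated spermatogonium were called about as often as the 5.92% of all genes. Of 18 genes of the GDNF response and other stem cell genes, 2 were called higher and none lower, with a median log2 difference of 0.22. The called genes were *Cxcr4*, the receptor of the niche chemokine CXCL12 (2.42, 95% interval 0.73 to 4.11, limma, adjusted *P* = 0.359), and *T*, which encodes the T-box factor Brachyury (1.19, 0.10 to 2.27, adjusted *P* = 0.483). For *Gfra1*, *Ret* and *Etv5* the log2 differences were 0.52, 0.23 and -0.32. None of the 12 general undifferentiated genes was called, with a median of 0.01. Among 8 progenitor genes 1 was called lower, *Rarg* (-1.06, limma, adjusted *P* = 0.449), which encodes a retinoic acid receptor, and the median was -1.01. This count rests on single libraries. Without control replicate 3 or cryptorchid replicate 2, 4 were called lower (beside 572 and 401 of all genes), and without cryptorchid replicate 1, 3 were (beside 472). It was 0 without control replicate 1 or 2 or cryptorchid replicate 3 (beside 296, 446 and 371). Without control replicate 1 or 4 or cryptorchid replicate 7, 1 was called higher (beside 556, 677 and 548), as with the length trend removed (beside 547). Of 9 genes of differentiating spermatogonia, *Stra8*, a retinoic acid target, was called higher (1.09, limma, adjusted *P* = 0.273) and the DNA methyltransferase gene *Dnmt3b* lower (-1.20, adjusted *P* = 0.215), with a median of -0.31.

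Among the lists of other cells, more than 1 call in 1 direction was found in the spermatid and endothelial lists only. Of 9 spermatid markers 5 were called lower and none higher (median -2.37), with *Prm2* at -3.73 (limma, adjusted *P* = 0.134). No spermatocyte marker among 10 was called (median 0.08). Single markers were called higher for macrophages (*Mrc1*, 2.02, 1 of 6), Sertoli cells (*Gata1*, 2.15, 1 of 11) and peritubular myoid cells (*Des*, 1 of 6, with *Actg2* lower at -2.46). *Des* had reads in 8 of 12 libraries, and 0 myoid markers were called higher with log2(RPM + 1) or a common floor. None of 3 Leydig cell and 3 lymphocyte markers tested was called, and the summed lymphocyte level was 0.886 to 5.98 RPM in control and 0 to 22.04 RPM in cryptorchid libraries, where *Nkg7* had no reads in any library. The part of these cells in the differences of the stem-state genes was not tested.

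**Figure D5:**
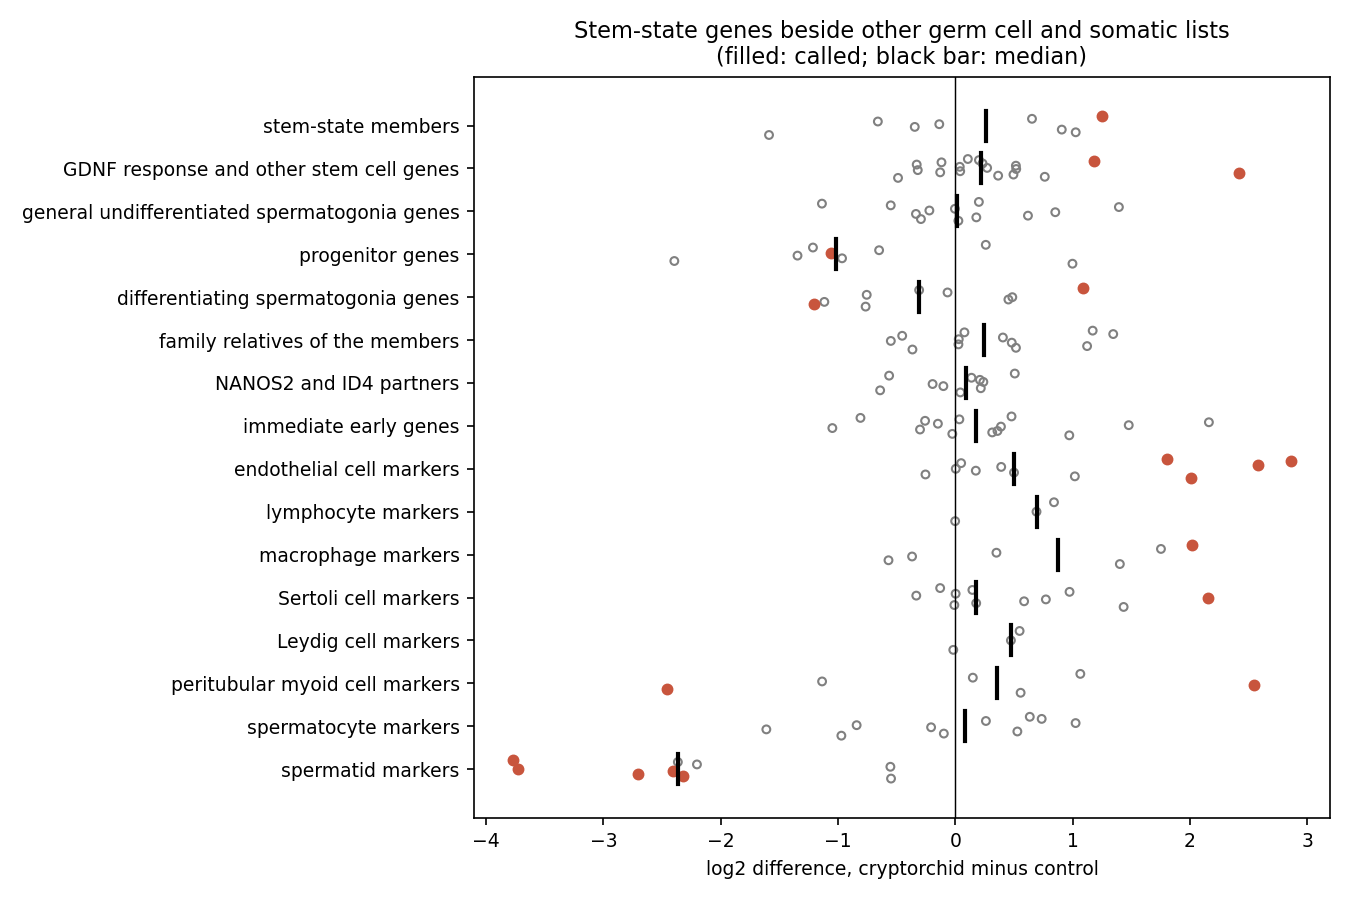
Log2 difference, cryptorchid minus control (x axis), of each tested gene of the 16 lists (y axis), where filled circles were called at 2-fold and an unadjusted *P*-value under 0.05, open circles were not, and black bars are medians. The stem-state genes spread to both sides of 0 around a median of 0.26, while the progenitor and spermatid lists have medians of -1.01 and -2.37.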

How the data were processed

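The authors trimmed the paired reads with Trim Galore (0.6.6, with FastQC 0.11.8, per the labels), mapped them to mm10 with HISAT2 (2.1.0) and used SeqMonk to count reads on protein-coding genes. Their own test ran on read counts. The deposited values are log2 RPM, 1 column per library, without pooling, and 0 columns belonged to no sample. As the unit is log2 and not counts, limma (3.58.1, R 4.3.3; lmFit and eBayes with trend) was fitted to the deposited values of the 16932 genes with log2 mean RPM above -1, the limit of the study's methods, without a further pseudocount. A gene without reads carries a value standing for 0.9 reads. A call needed a 2-fold difference and an unadjusted *P*-value (two-sided) under 0.05, after the study's thresholds, and the adjustment was Benjamini-Hochberg over all genes. Single genes were also tested by the exact rank sum over the 792 ways to assign 5 of 12 libraries, with a smallest two-sided *P*-value of 0.00253, and over the 300 ways that keep the library sets apart.

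Reads were recovered from the steps between low values (100% whole within 0.1 reads for values under 1000 reads), and read numbers cover counting error only. Exonic lengths and positions are those of GENCODE vM21 (GRCm38), and the promoter sequences are RefSeq's (GRCm38.p6, 6 of the 8 genes matched). Besides *Nanos2*, the exons of *Id4*, *Eomes* and *Tspan8* overlap antisense genes by 171, 118 and 4 bases. The genes and lists were chosen with earlier results of these data known. Named genes of the other lists are those called, at most the 4 with the smallest *P*-values, with family relatives and the sort markers named in any case. *Ret*, *Etv5*, *Fos*, *Jun*, *Nkg7* and the partners of ID4 and NANOS2 are named outside this rule and were not called, and *Neurog3* is named as background. For each stem-state gene the 3 genes with the highest Pearson *r* are named, of which 1 is not reported here. Alternatives were other scalings, pseudocounts and filters, a common floor, array weights, voom on the recovered reads, a replicate block, library sets, other tests, ratios of mean RPM and leaving out each library. Removal of the length trend (lowess, span 0.3, for the 97.8% of genes with a length) and leaving out both replicate 3 libraries were chosen after the data were seen. Python 3.11.15, numpy 2.4.6, pandas 2.3.3, scipy 1.17.1 and matplotlib 3.10.9 were used, and the fits were tested on simulated data.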

Additional observations from a re-analysis of the deposited data

Results flagged for a closer look

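In the 16 sets of values formed by the 8 genes in each group, 2 held a library far from the rest, judged by its gap to the nearest library over the range of the group. Both concern *Id4* in replicate 3, at a log2 RPM of -0.35 in the control library and 0.51 in the cryptorchid library, where the next lowest values of the groups were 2.90 and 3.25. Chance gives about 1 such library in 20 groups. The same libraries have the largest excess of long over short genes, and its part in the *Id4* values was not tested beyond the fit without the length trend (log2 difference 0.83, limma, adjusted *P* = 0.692).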

How the results depend on the processing

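*Tspan8* kept its direction under each of the 30 alternatives, between 1.01 and 1.43 on the log2 scale. It kept its call under each of those with a *P*-value, as 1 of the 30, the ratio of mean RPM, has none. *Nanos2* and *Shisa6* kept their direction and were called under none of 30. *Id4*, *Eomes*, *Plvap* and *Egr4* kept their direction in all 30 and passed the call in 1, 3, 1 and 14 of them. The 14 of *Egr4* include the exact one-sided rank sum test (*P* = 0.0366), whose two-sided form gave *P* = 0.0732. *Pdx1* turned positive with voom (0.071) and in replicates 1 to 3 alone (0.23). Of the 8 genes, 2 were called, in place of 1, with log2(RPM + 0.1), log2(RPM + 1), a common floor and no filter (each adding *Egr4*), with voom (adding *Eomes*), with a term for the library set and in replicates 4 and above alone (adding *Egr4*). With array weights 3 were called (adding *Egr4* and *Plvap*). Leaving out each library in turn gave 1 to 3 calls. The count over all genes, 1002, was 1585 with array weights and 632 in replicates 1 to 3 alone. It was 959 with log2(RPM + 0.1), 852 with log2(RPM + 1), 953 with a common floor and 1280 (of 21859) with no filter. With voom it was 1311, with the library set term 1215 and in replicates 4 and above alone 1340. The causes were not tested. The share of higher genes among all calls, 60.2%, was 45.7% with quantile normalization, 47.7% with the library set term, 45.4% in replicates 1 to 3 alone and 47.4% in replicates 4 and above alone. Of 756 counts of the other lists under these settings, without the family relatives list, 674 were unchanged or within 1.5 times the main count. Counts of 0 in both fits are among the unchanged ones, so this share does not measure how stable the calls are.

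With the replicate number as a replicate block over the 5 paired numbers, 3 of the 8 genes were called (*Tspan8*, *Eomes* and *Egr4*). Of all 16932 genes 1678 were called there, and 46.4% of those calls were higher. Among the 14 other immediate early genes 4 were called higher there and none lower, beside 778 and 900 of all genes. After adjustment 2 of the 8 passed (*Tspan8*, adjusted *P* = 0.00641, and *Shisa6*, adjusted *P* = 0.0288, limma), beside 949 of all genes. Samples of the same number deviated together with an *r* of 0.05 to 0.41 over genes, and 4 of 5 control and 4 of 5 cryptorchid libraries were closest to their own number, a hint from the data. Libraries of the same number also share a library set, and only the group means were removed before these *r* values were taken. Control replicate 4 had an *r* of 0.250 with cryptorchid replicate 4 and of 0.239 with cryptorchid replicate 7, so that match is close to a tie. In same-number comparisons the cryptorchid value was higher in 5 of 5 for *Tspan8*, *Eomes*, *Id4* and *Shisa6*. It was higher in 3 of 5 for *Pdx1*, in 1 of 5 each for *Nanos2* and *Plvap* and in 0 of 5 for *Egr4*. The matching share over all genes was not taken. As the labels do not say that a number marks a shared mouse, the libraries are taken to share only a number. The number of libraries limits precision, where the narrowest 95% interval of the 8 was that of *Tspan8* (0.44 to 2.07), and depth went down to 8 reads (*Id4*).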
